A study of Mus musculus with 6 samples.

Results

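A set of 10 genes for secreted antimicrobial effectors and related surface proteins of the gut lining was described in mouse colon, out of 25339 genes in the table. They were the lectins Reg3b, Reg3g, Reg4 and Itln1, the RNase Ang4, lysozyme Lyz1, the mucosal pentraxins Mptx1 and Mptx2, the anchored protein Lypd8 and the antibody receptor Pigr. The members were chosen by name with their values in the same DMSO and lenvatinib libraries in view, so their levels and differences are given as a description with no test. RNA sequencing was done on colon from mice given DMSO, the solvent, or lenvatinib, an inhibitor of receptor tyrosine kinases including the VEGF and FGF receptors, with 3 libraries in each group. The labels call these biological replicates, and do not name the animal, strain, age, sex, dose or time, or say whether colitis, which the series title names, was induced. The sample titles say colon and name no segment of it.

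The gut lining keeps bacteria at a distance with mucus and with secreted proteins. Paneth cells, which sit at the base of small intestinal crypts and are normally absent from mouse colon, secrete lysozyme and α-defensins. In the colon, goblet and deep crypt secretory cells supply mucus proteins and lectins such as Reg4, and surface cells carry Lypd8 and Pigr. Reg3b and Reg3g are C-type lectins that act on bacteria and are induced by microbial signals and by interleukin-22.

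Libraries 2 and 3 of each group were close to copies of each other. The median squared difference between 2 libraries, relative to counting noise, was 2.53 for DMSO 2 and 3 and 2.29 for lenvatinib 2 and 3, against 10.2 to 25.5 for the other 13 pairs. It was computed over genes with at least 10 reads in both libraries of a pair. DMSO 1 was the library with Y-linked Ddx3y (6.54 FPKM, against 0 in the other 5) and almost no Xist (0.0015 FPKM, against 15.9 to 19.8). That is the pattern of male tissue in DMSO 1 and of female tissue in the other 5. Depth, recovered from the FPKM values (fragments scaled to gene length and to the library's total), ran from 37870007 to 39489879 reads in genes. Since DMSO 1 stands apart, values are given with and without it.

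Sequences of the start regions are shown for 2 pairs of related members, because the genes of the first pair had near-parallel levels and those of the second went opposite ways. Each window runs from 250 bases before to 50 bases after the RefSeq start in build GRCm38.p6, which is not the build of the expression table, and is written 5′ to 3′ on the gene's strand. Capitals mark the longest run of bases that the pair shares. Reg3b lies at chr6:78370635-78370934 on the plus strand and Reg3g at chr6:78468825-78469124 on the minus strand.
Reg3b: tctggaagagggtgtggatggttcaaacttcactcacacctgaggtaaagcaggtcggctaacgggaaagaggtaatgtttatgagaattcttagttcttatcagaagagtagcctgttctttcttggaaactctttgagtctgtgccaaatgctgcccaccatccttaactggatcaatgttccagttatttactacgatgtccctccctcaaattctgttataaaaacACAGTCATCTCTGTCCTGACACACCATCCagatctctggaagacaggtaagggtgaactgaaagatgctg
Reg3g: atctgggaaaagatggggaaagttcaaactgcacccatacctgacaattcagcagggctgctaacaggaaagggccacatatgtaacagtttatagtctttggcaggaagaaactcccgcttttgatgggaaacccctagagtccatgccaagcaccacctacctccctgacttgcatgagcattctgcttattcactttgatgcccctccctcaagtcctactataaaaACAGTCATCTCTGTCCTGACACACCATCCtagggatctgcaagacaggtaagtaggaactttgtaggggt
The shared run is 29 bases long and lies from -20 to 8 relative to the start in both genes, and the windows were 68.6% identical. Mptx1 lies at chr1:174330268-174330567 on the plus strand and Mptx2 at chr1:173277707-173278006 on the minus strand.
Mptx1: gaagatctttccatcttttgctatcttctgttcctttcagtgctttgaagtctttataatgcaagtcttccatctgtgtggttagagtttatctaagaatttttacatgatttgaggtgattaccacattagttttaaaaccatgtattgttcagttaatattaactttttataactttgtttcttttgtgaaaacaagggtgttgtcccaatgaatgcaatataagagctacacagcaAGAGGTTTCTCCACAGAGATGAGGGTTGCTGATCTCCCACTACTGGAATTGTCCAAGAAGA
Mptx2: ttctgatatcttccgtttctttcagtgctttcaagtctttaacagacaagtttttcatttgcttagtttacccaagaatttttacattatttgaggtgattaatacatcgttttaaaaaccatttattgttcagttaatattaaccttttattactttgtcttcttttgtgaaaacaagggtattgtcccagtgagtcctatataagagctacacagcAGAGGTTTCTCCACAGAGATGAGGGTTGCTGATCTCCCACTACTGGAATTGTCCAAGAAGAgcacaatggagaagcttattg
Here the shared run is 61 bases long, and the windows were 76.7% identical. All 10 members had a window in the RefSeq table. The letters TATAAA, searched on both strands, were found in 3 of 10 members (Reg3b, Reg3g and Mptx1) and in 13.6% of 32851 windows of this length. In Reg3b and Reg3g they lie at -29 to -24 and at -27 to -22 from the start. The STAT-type letters TTCNNNGAA were found in Reg3b, Ang4 and Pigr, against 8.3% of all windows, and TTCNNNNGAA in 0 of 10 members, against 6.95%. The letters TTTATG, a core bound by CDX factors, were found in Reg3b and Itln1, against 11.9% of all windows. These matches describe the letters only.

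Reg3b, Reg3g, Itln1, Lyz1 and Mptx2 had higher levels in every lenvatinib library than in any DMSO library. Reg4, Ang4 and Mptx1 had lower levels in every lenvatinib library. Lypd8 and Pigr had groups that overlapped. These 5 higher and 3 lower members stand beside 10% and 17.5% of all 11774 genes tested whose groups did not overlap in those directions (27.5% in either). In limma with Benjamini-Hochberg adjustment 2 members passed higher, Lyz1 and Mptx2, and 0 lower, beside 1.1% and 0.934% of all genes (2.03% in either direction). As the members were chosen on this contrast, nothing is read from these counts. The median log2 fold change was 1.29 over the members and -0.07 over all genes tested. Since the members were so chosen and went both ways, nothing is read from this median either. The scale is log2(FPKM + 1), which is used for every fold change below and understates those of low genes. All 10 passed the filter used for the test, an average level of 1 FPKM or more. Mptx2 reached it only through the lenvatinib libraries and Mptx1 only through the DMSO libraries. Because this is bulk tissue, fewer cells of a type and less RNA per cell cannot be told apart.

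**Figure D1:**
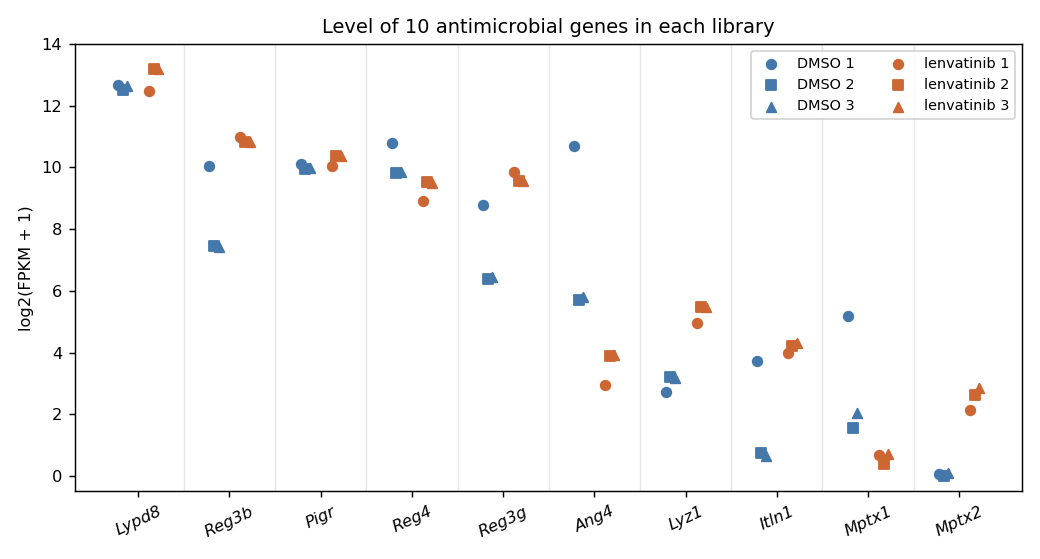
Level of each member as log2(FPKM + 1) on the vertical axis, with 1 point per library (blue DMSO, orange lenvatinib, the shape giving the library number). DMSO 1, the blue circle, lies away from DMSO 2 and 3 for Ang4, Itln1, Mptx1, Reg3b and Reg3g, and points of libraries 2 and 3 nearly coincide for most genes.

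In the order of their numbers, the DMSO libraries had 1068, 174 and 172 FPKM of Reg3b, and the lenvatinib libraries 2047, 1828 and 1819 FPKM. The same order of libraries is kept for each gene below. DMSO 1 lay between the other DMSO libraries and the lenvatinib libraries. The group means were 471 ± 517 and 1898 ± 129 FPKM (SD, n = 3), a 4.03-fold difference that was 10.99-fold against DMSO 2 and 3 alone. The log2 fold change was 2.57 (SE 0.70), and 3.45 (SE 0.07) without DMSO 1. Without DMSO 1 the DMSO group holds only the near copies 2 and 3. A small SE there, here and below, reflects their closeness and not a more precise difference. The same holds for an SE without lenvatinib 1. Reg3g, the other inducible Reg3 lectin, measured 444, 82.6 and 86.2 FPKM in DMSO and 921, 751 and 755 FPKM in lenvatinib. It had the same order of libraries as Reg3b at the group level, with DMSO 1 again between. Its means were 204 ± 207 and 809 ± 97.1 FPKM, 3.96-fold apart and 9.59-fold apart against DMSO 2 and 3. The log2 fold change of Reg3g was 2.45 (SE 0.64), and 3.24 (SE 0.11) without DMSO 1.

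The level of Reg3b was 2.41, 2.10 and 2.00 times that of Reg3g in DMSO 1 to 3 and 2.22, 2.43 and 2.41 times in lenvatinib 1 to 3. The ratio thus stayed within a narrow range while both levels varied widely. Across the 6 libraries Pearson's r of log2 levels was 0.999 for the pair, where libraries 2 and 3 of each group are not distinct points. The transcripts were 70.8% identical, with a longest shared run of 35 bases. Reg3a, the nearest relative outside the members, measured 0.22, 0 and 0 FPKM in DMSO and 1.65, 1.04 and 0.678 FPKM in lenvatinib. Reg1, Reg2 and Reg3d stayed below 0.2 FPKM in all 6 libraries, so 0 of the 4 other Reg genes passed the filter on low values.

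Itln1, intelectin-1, a lectin that binds microbial sugars, measured 12.3, 0.673 and 0.578 FPKM in DMSO and 15.0, 17.5 and 18.9 FPKM in lenvatinib. DMSO 1 came close to the lenvatinib libraries, and DMSO 2 and 3 rested on 32 and 27 reads. The means were 4.503 ± 6.72 and 17.1 ± 1.97 FPKM, a 3.80-fold difference, or 27.4-fold against DMSO 2 and 3. On the log2 scale the difference was 2.46 (SE 0.82), and 3.47 (SE 0.11) without DMSO 1. Its log2 level followed that of Reg3b across the 6 libraries with r of 0.992.

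Reg4, a lectin of goblet and deep crypt secretory cells, was the member with the opposite direction among the lectins. It measured 1768, 901 and 930 FPKM in DMSO and 484, 744 and 722 FPKM in lenvatinib. The lowest DMSO library was 1.21 times the highest lenvatinib library, so the gap was small once DMSO 1 was set aside. The means were 1200 ± 492 and 649.8 ± 144 FPKM. This gave a log2 fold change of -0.84 (SE 0.30), and -0.52 (SE 0.21) without DMSO 1. Reg3b was at 0.604, 0.193 and 0.185 times the level of Reg4 in DMSO and at 4.23, 2.46 and 2.52 times in lenvatinib, so the more abundant of these lectins was Reg4 in DMSO and Reg3b in lenvatinib.

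Ang4, an RNase of secretory cells that kills bacteria, had the largest ratio of DMSO 1 to the other DMSO libraries among the members. It measured 1672, 51.2 and 55.3 FPKM in DMSO and 6.69, 13.9 and 14.3 FPKM in lenvatinib. DMSO 1 was 31.4 times the mean of DMSO 2 and 3. The means were 593 ± 934 and 11.6 ± 4.27 FPKM, so that DMSO was 51.0 times lenvatinib with DMSO 1 and 4.59 times without it. The log2 fold change was -3.82 (SE 1.35), and -2.17 (SE 0.33) without DMSO 1. Ang4 transcripts were 88.9% identical to Ang5 and 88.8% to Ang2, and reads could have been split among such copies, so the level of Ang4 alone is uncertain. Among other RNases of the family, Ang measured 14.4, 18.0 and 18.2 FPKM in DMSO and 17.3, 25.5 and 22.3 FPKM in lenvatinib. Of 3 tested RNase A genes (Ang, Rnase4 and Rnase6) 0 passed limma's adjusted test, with a median log2 fold change of 0.33, and 2 had an unadjusted p under 0.05.

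Mptx1, a mucosal pentraxin of the colon, had the same order of groups as Ang4. It measured 35.1, 1.92 and 3.10 FPKM in DMSO and 0.619, 0.319 and 0.644 FPKM in lenvatinib. These rested on 1071, 61 and 97 reads and on 19, 10 and 20 reads, so the lenvatinib levels are imprecise. On the log2 scale the difference was -2.32 (SE 0.92), and -1.19 (SE 0.19) without DMSO 1. Mptx2, a pentraxin described in Paneth cells, went the other way. It measured 0.0379, 0 and 0.0740 FPKM in DMSO and 3.39, 5.20 and 6.29 FPKM in lenvatinib. DMSO held 1, 0 and 2 reads, and lenvatinib 90, 141 and 169. Summed, 3 reads against 400 gave a depth-corrected ratio of 133.9, with a 95% interval of 45.48 to 651.9 that covers counting error only. The interval pools the libraries of a group, leaves out the spread between them, and is no test, as Mptx2 was chosen on this contrast. The fitted log2 fold change on FPKM + 1 was 2.49 (SE 0.19), and 2.49 (SE 0.23) without DMSO 1. Both transcripts were 92.3% identical and shared a run of 112 bases, as well as the start-region run shown above. Reads could have been split between them, so each level is uncertain, although the sign of the difference was opposite in the 2 genes.

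Lyz1, the lysozyme of Paneth cells, which cuts bacterial cell walls, measured 5.64, 8.34 and 8.04 FPKM in DMSO and 29.98, 43.6 and 43.3 FPKM in lenvatinib. The groups were far apart, with the lowest lenvatinib library at 3.59 times the highest DMSO library. The means were 7.34 ± 1.48 and 38.9 ± 7.77 FPKM, 5.31-fold apart. The log2 fold change was 2.26 (SE 0.19), and 2.10 (SE 0.18) without DMSO 1. DMSO 1 was the lowest library, so Lyz1 did not share the high DMSO 1 level of Reg3b and Itln1. Lyz2, the lysozyme of macrophages, was 95.8% identical to it, and had 379, 488 and 500 FPKM in DMSO and 246, 180 and 178 FPKM in lenvatinib. Lyz2 fell (log2 fold change -1.18, SE 0.17, limma adjusted p = 0.0271). Of 17 alternatives, 8 ended this call, including those without DMSO 2, DMSO 3, lenvatinib 2 or lenvatinib 3 (adjusted p 0.00168 to 0.543 over the alternatives). Since reads could be split between the copies, the level of each is uncertain.

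Lypd8, which binds flagellated bacteria at the colonic surface, was the third most abundant of the genes tested by mean FPKM. It measured 6512, 5883 and 6439 FPKM in DMSO and 5685, 9237 and 9242 FPKM in lenvatinib. Lenvatinib 1 lay below all DMSO libraries and lenvatinib 2 and 3 above them. On the log2 scale the difference was 0.33 (SE 0.20), 0.35 (SE 0.25) without DMSO 1 and 0.56 (SE 0.06) without lenvatinib 1. Pigr, the receptor that carries IgA into the lumen, measured 1107, 994 and 1005 FPKM in DMSO and 1046, 1323 and 1311 FPKM in lenvatinib. Lenvatinib 1 lay within the DMSO range and lenvatinib 2 and 3 above it. The log2 fold change of Pigr was 0.24 (SE 0.11), 0.29 (SE 0.12) without DMSO 1 and 0.35 (SE 0.06) without lenvatinib 1. The log2 levels of both genes followed each other across the 6 libraries with r of 0.953.

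The high DMSO 1 level was a feature of 6 of the 10 members. These differed by at least 1.5 times from the mean of DMSO 2 and 3 (on FPKM + 1), as did 430 of all 11774 genes tested (3.65%). At 5 times or more there were 5 members, against 20 genes (0.17%). The ratio of DMSO 1 to that mean was 31.4 for Ang4, 19.6 for Itln1, 13.99 for Mptx1, 6.18 for Reg3b, 5.26 for Reg3g and 1.93 for Reg4. Lyz1, Lypd8, Pigr and Mptx2 lay at 0.689, 1.06, 1.11 and 1.03. In lenvatinib 1 the corresponding numbers were 4 members at 1.5 times, against 11.9% of genes, and 0 at 5 times. Other secreted products were also high in DMSO 1. The goblet protein Clca1 measured 1973, 329 and 334 FPKM in DMSO and 52.3, 61.8 and 62.4 FPKM in lenvatinib. Retnlb, a resistin-like protein that is induced by type 2 cytokines and acts on bacteria, measured 2126, 555 and 591 FPKM in DMSO and 373, 404 and 400 FPKM in lenvatinib. Il13, a type 2 cytokine below 1 FPKM throughout, measured 0.546, 0 and 0 FPKM in DMSO and at most 0.0217 FPKM in lenvatinib. Clca1, Retnlb and Il13 were chosen after their values were seen. The 19 type 2 and tuft cell genes in the table summed to 104, 112 and 112 FPKM in DMSO, with DMSO 1 lowest. They summed to 103, 87.1 and 85.9 FPKM in lenvatinib. Whether any of these genes had a part in the members' levels was not tested.

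**Figure D2:**
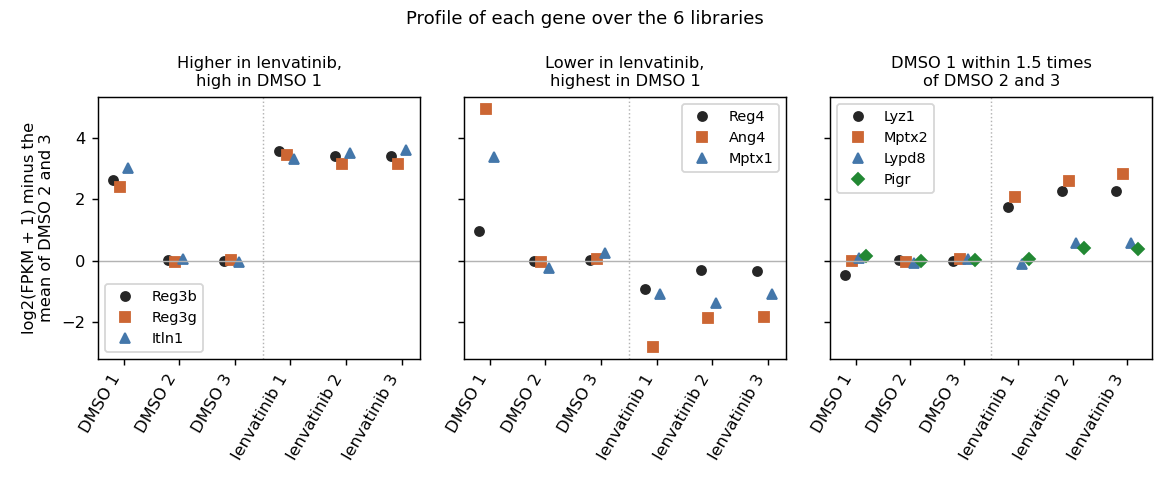
Difference of log2(FPKM + 1) from the mean of DMSO 2 and 3 (vertical axis) in each library (horizontal axis), 1 symbol per gene, in 3 panels. Reg3b, Reg3g and Itln1 are high in DMSO 1 and in lenvatinib, Reg4, Ang4 and Mptx1 are highest in DMSO 1 and below 0 in lenvatinib, and Lyz1 and Mptx2 are raised only in the lenvatinib libraries.

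Across the libraries the members fell into such sets when their log2 levels were compared. Ang4 went with Mptx1 (r of 0.982) and Reg4 (0.97), and Lyz1 with Mptx2 (0.988). Mptx1 and Mptx2 had r of -0.701. The tested genes outside the members most like Reg3g were Synpo2, 9130204K15Rik and Akap9 (r of 0.997, 0.995 and 0.995). For Ang4 they were Jak2, Nmu and Nupr1 (0.998, 0.997 and 0.994), for Lyz1 Gm3336, Itpk1 and Vnn1 (0.999, 0.998 and 0.998), and for Pigr Naip1, Prkaa2 and A1cf (0.998, 0.997 and 0.997). These correlations over 6 libraries describe an order that the near copies 2 and 3 repeat, with no test. The amplitude can differ greatly, since Jak2 ran only from 7.93 to 9.24 FPKM while Ang4 ran from 6.69 to 1672 FPKM. The members together took 1.64, 1.21 and 1.29% of reads in DMSO and 1.38, 1.91 and 1.91% in lenvatinib, of which Lypd8 alone took 0.688 to 1.12%.

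Lists of cell type markers were also compared between the groups, and they differed in direction and in overlap. For the 27 Paneth cell genes in the table, with no filter on low values, the summed level was 40.6 to 70.4 FPKM in DMSO and 237 to 427 FPKM in lenvatinib. Most of the DMSO sum was the stress gene Nupr1, with 55.9, 40.3 and 39.3 FPKM, and 18 of the 27 genes were at 0 in all 3 DMSO libraries. Nupr1 went the other way from the sum, with 33.75, 34.3 and 35.9 FPKM in lenvatinib. Among the 16 tested genes of the list, 14 had a log2 fold change above 0 and 2 below 0. Mmp7, the protease that activates α-defensins, measured 0.0236, 0.0226 and 0.0230 FPKM in DMSO and 6.37, 3.38 and 4.19 FPKM in lenvatinib. Defa24, an α-defensin gene, had 1.13, 0 and 0 FPKM in DMSO against 94.8, 139 and 124 FPKM in lenvatinib. Single α-defensins are uncertain, as this family consists of close copies. Of the 16 Paneth genes that were tested, 14 had a DMSO mean under 1 FPKM and reached the filter only through lenvatinib. The 10 that limma called higher were all among these 14, so that count follows from the filter and nothing is read from it. Of 14 tested small intestinal enterocyte genes 7 rose and 0 fell, and 4 of the 7 had reached the filter only through lenvatinib. The other 3 included the ileal bile acid binding protein Fabp6, with 1.44, 2.28 and 2.27 FPKM in DMSO and 161, 159.8 and 148 FPKM in lenvatinib. That list's summed level was 481 to 628 FPKM and 590.3 to 893 FPKM. The count of those higher was 5 without DMSO 1 and 2 without any other 1 library except lenvatinib 1, where it was 12 and 4479 of all genes passed. It was 3 with libraries 2 and 3 as a random block and 1 with these averaged. Fabp6 passed in each of the 17 alternatives (limma adjusted p = 2.01e-05 in the test with all libraries, up to 0.0102). The summed Paneth level was higher in every lenvatinib library than in any DMSO library, as were Lyz1, Mptx2, Itln1, Reg3b and Reg3g, while the enterocyte sums overlapped. The part of these markers, or of the stretch of gut taken for each library, in the members' differences was not tested.

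Goblet and deep crypt secretory markers, with Reg4 and Ang4 left out, had 0 of 15 tested genes higher and 1 lower in limma (5 at an unadjusted p under 0.05). The log2 fold change was below 0 in 14 of the 15, with a median of -0.54. Without overlap of the groups 9 were lower and 0 higher, beside 17.5% and 10% of all genes tested. Their summed level was 13804, 6867 and 7069 FPKM in DMSO and 4854, 6904 and 6838 FPKM in lenvatinib, a sum that the most abundant genes set. The gene that fell was Agr2, which folds mucin, from 569 ± 93.6 to 281 ± 8.32 FPKM (log2 fold change -1.001, limma adjusted p = 0.0147). It was lost without each of DMSO 2, DMSO 3, lenvatinib 2 and lenvatinib 3 (adjusted p 0.00444 to 0.327 over the alternatives). The list had 2 lower without DMSO 1, and 3 lower and 1 higher without lenvatinib 1. Without lenvatinib 1, 4479 of all 11774 genes passed, 1160 higher and 3319 lower. Nothing is therefore read from list counts without lenvatinib 1, here and in the other lists. Colonocyte markers summed to 9636 to 11594 FPKM in DMSO and 9290 to 13470 FPKM in lenvatinib, with 0 of 14 passing, 4 at an unadjusted p under 0.05 and 13 with a log2 fold change above 0. Without DMSO 1, 2 passed higher, and without lenvatinib 1, 9 did. Macrophage markers fell in 9 of 13 tested genes and rose in 0, with sums of 744 to 921 FPKM and 339 to 466 FPKM. The count of those lower was 7 without DMSO 1, 12 (with 1 higher) without lenvatinib 1 and 3 without each other library. It was 3 with libraries 2 and 3 as a random block and 0 with these averaged. Lyz2 belongs to that list. Neutrophil markers summed to 11.2 to 21.7 FPKM in DMSO and 47.0, 13.4 and 14.3 FPKM in lenvatinib, with a median log2 fold change of 1.18 over 5 tested genes. Of these, S100a8, S100a9 and Ly6g were higher without overlap, beside 10% of all genes tested, and did not pass. Without lenvatinib 1, 2 genes passed higher. Mmp9 fell, a call lost without DMSO 2, DMSO 3 or lenvatinib 3. Pancreatic acinar genes (the pancreas also makes Reg proteins) had 1 tested gene (Cela1), which did not pass, and sums of 33.2 to 34.3 FPKM and 25.4 to 38.8 FPKM. The mean level of 7 broadly expressed epithelial genes was 981, 948 and 921 FPKM in DMSO and 859, 880 and 870.03 FPKM in lenvatinib.

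**Figure D3:**
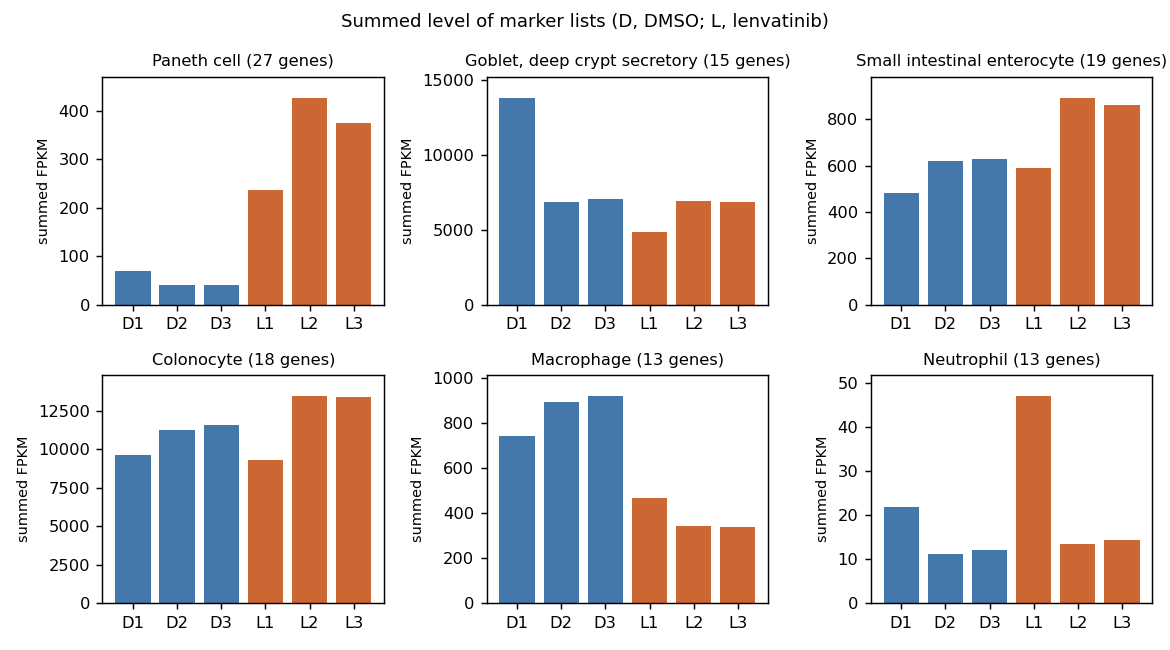
Summed FPKM of 6 marker lists (vertical axes, from 0) in each library, with D for DMSO in blue and L for lenvatinib in orange. The Paneth bars stand at 237 to 427 FPKM in lenvatinib against 40.6 to 70.4 FPKM in DMSO, and the goblet bar is highest in DMSO 1.

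The other genes of the members' families and of their inducing pathways were tested as lists of single genes. The lists were chosen with earlier results of these data known, so nothing is read from the share that passed. Of 216 listed genes 194 were in the table and 136 were tested; 1 rose and 8 fell, 6.62% against the 2.03% of all genes, with a median log2 fold change of -0.07. Of these 9 genes, 6 still passed without DMSO 1, 9 without lenvatinib 1, and 0, 1, 2 and 1 without DMSO 2, DMSO 3, lenvatinib 2 and lenvatinib 3. With libraries 2 and 3 averaged 0 of the 9 passed.

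The IL-22, IL-17 and STAT3 axis, which induces Reg3 lectins, had 0 of 20 tested genes passing in either direction (9 at an unadjusted p under 0.05). The median was 0.11. Without overlap 6 were higher and 2 lower, beside 10% and 17.5% of all genes tested. Il18, an epithelial cytokine, measured 16.4, 20.7 and 20.6 FPKM in DMSO and 26.9, 61.8 and 62.4 FPKM in lenvatinib. Pim3, a kinase gene that STAT3 induces, measured 21.2, 19.5 and 19.6 FPKM in DMSO and 26.5, 34.7 and 35.1 FPKM in lenvatinib (limma adjusted p = 0.0563). The IL-17 receptor subunits Il17re and Il17ra had log2 fold changes of 0.37 and -0.25. Socs3, a feedback inhibitor of STAT3, was at 20.8, 10.7 and 12.7 FPKM in DMSO and at 30.0, 22.3 and 21.3 FPKM in lenvatinib, and it did not pass; it was chosen after its values were seen, for having DMSO 1 nearest to the lenvatinib libraries, as in Reg3b. Il22 itself was below 1 FPKM throughout, at 0.113, 0.721 and 0.696 FPKM in DMSO and 0.149, 0.238 and 0.0553 FPKM in lenvatinib.

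Toll-like receptor and NF-kB genes had 1 of 28 tested rising and 0 falling, with a median of 0.03. Tlr2, the receptor for bacterial lipoproteins, rose from 15.8, 15.9 and 16.7 FPKM to 22.1, 21.5 and 21.0 FPKM (log2 fold change 0.40, limma adjusted p = 0.0265). That call was lost without each library except lenvatinib 1 (adjusted p 0.00404 to 0.657 over the alternatives). Among inducible epithelial antimicrobial and oxidase genes 0 of 24 rose and 2 fell, with 7 at an unadjusted p under 0.05. The median was 0.20, and 6 genes were higher and 6 lower without overlap, beside 10% and 17.5% of all genes tested. Among those higher, Lcn2, an iron-scavenging protein, measured 4.07, 1.92 and 2.29 FPKM in DMSO and 44.4, 5.34 and 5.17 FPKM in lenvatinib. S100a8, S100a9 and Steap4 had log2 fold changes of 1.42, 1.47 and 0.82, and none of these 4 passed. Those that fell were the gasdermins Gsdmc2, from 332 ± 47.6 to 187 ± 19.9 FPKM, and Gsdmc4, from 1190.3 ± 101.3 to 724 ± 105 FPKM (log2 fold changes -0.82 and -0.72, limma adjusted p = 0.0361 and 0.04997). The list had 3 lower without DMSO 1, and 4 higher and 5 lower without lenvatinib 1, where 4479 of all 11774 genes passed. Gsdmc2 was lost without DMSO 2, DMSO 3, lenvatinib 2 or lenvatinib 3, and Gsdmc4 without these or DMSO 1.

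Type 2 and tuft cell genes had 0 of 7 rising and 2 falling. These were leukotriene enzymes, Alox5, from 1.78 ± 0.425 to 0.4403 ± 0.0909 FPKM, and Ltc4s, from 4.52 ± 0.483 to 1.77 ± 0.113 FPKM (limma adjusted p = 0.0255 and 0.00565). Both are also made by mast cells and macrophages. The macrophage list fell as given above, and its part in the fall of Alox5 and Ltc4s was not tested. Ltc4s was lost without DMSO 2, and Alox5 without DMSO 2, DMSO 3, lenvatinib 2 or lenvatinib 3. Regulators of the secretory lineage had 0 of 19 rising and 2 falling, with a median of -0.18. Foxa3, a goblet cell factor, fell from 12.0 ± 1.31 to 6.95 ± 0.678 FPKM, and Creb3l1, a regulator of secretory capacity, from 36.7 ± 1.02 to 22.7 ± 1.502 FPKM (limma adjusted p = 0.0271 and 0.00826). Foxa3 was lost without DMSO 2, DMSO 3, lenvatinib 2 or lenvatinib 3, and Creb3l1 without DMSO 2, DMSO 3 or lenvatinib 3.

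Among pentraxins and other soluble lectins 0 of 7 passed (3 at an unadjusted p under 0.05). Without overlap 2 were higher and 2 lower, beside 10% and 17.5% of all genes tested. Lgals2, a galectin, measured 20.6, 11.1 and 8.63 FPKM in DMSO and 67.1, 40.3 and 38.7 FPKM in lenvatinib (limma adjusted p = 0.0637). Lgals4, an abundant epithelial galectin, measured 2667 ± 145 and 3539 ± 286 FPKM. Zg16, a mucus lectin of goblet cells, measured 2846, 1484 and 1553 FPKM in DMSO and 820.4, 1383 and 1406 FPKM in lenvatinib, with DMSO 1 highest as in Reg4. Colec12, a scavenger receptor, had a log2 fold change of -0.27. In the lysozyme and peptidoglycan recognition list 1 of 4 tested genes fell, Lyz2. Of 12 tested genes of the Ly6 and uPAR family, to which Lypd8 belongs, 1 fell, Ly6g6c, from 2.91 ± 1.12 to 0.456 ± 0.282 FPKM (log2 fold change -1.41, limma adjusted p = 0.0474), and it was lost without each library except lenvatinib 1.

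Genes of IgA production and transport, the pathway Pigr serves, had 0 of 8 passing and 3 at an unadjusted p under 0.05. Jchain, which links IgA subunits for Pigr, measured 1595, 382 and 381 FPKM in DMSO and 357, 159 and 153 FPKM in lenvatinib. Tnfrsf13b and Tnfrsf17, receptors of antibody-secreting cells, had log2 fold changes of -1.22 and -0.85, and Fcgrt, an IgG transporter, 0.32. Among β-defensins, cathelicidin and secreted protease inhibitors 0 of 4 passed (2 at an unadjusted p under 0.05). Slpi, a protease inhibitor that also acts on bacteria, measured 24.5, 9.52 and 8.37 FPKM in DMSO and 7.71, 4.68 and 3.82 FPKM in lenvatinib. Adm, adrenomedullin, Wfdc2, a secreted inhibitor, and Defb37, a β-defensin, had log2 fold changes of 0.47, 0.15 and -0.32.

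**Figure D4:**
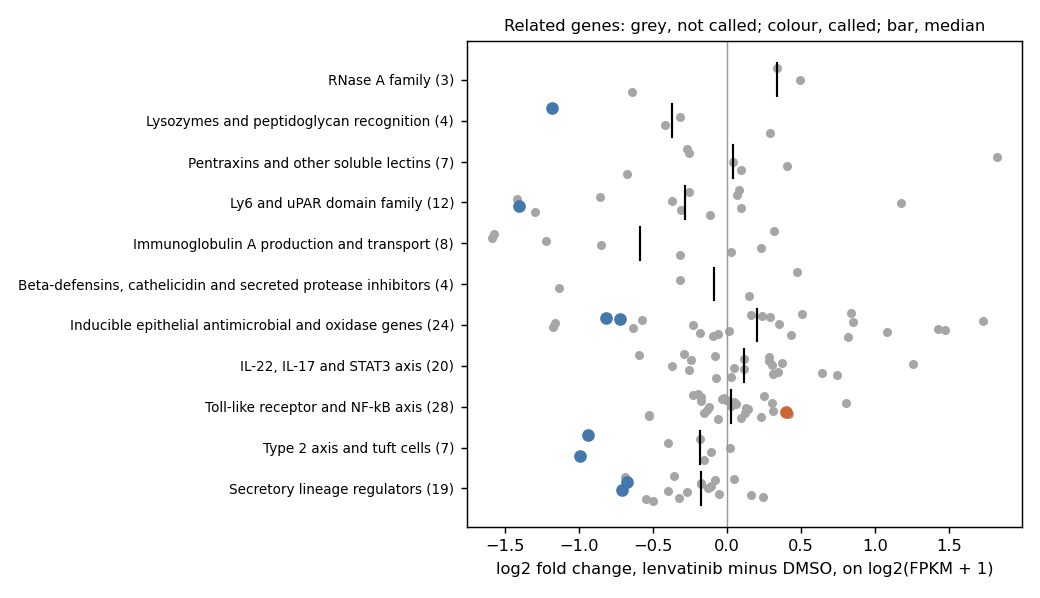
Log2 fold change (horizontal axis, lenvatinib minus DMSO) of each tested related gene, by list, with the number tested in parentheses, the bar at the list's median, and the 1 gene that rose in orange and the 8 that fell in blue. The medians of the lists lie between -0.59 and 0.33.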

How the data were processed

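Per the labels' protocols, TRIzol was used for RNA from mouse colon and the VAHTS Universal V10 kit for libraries. The authors deposited FPKM values for 25339 genes. The submitters' processing notes name HTSeq, a read counter, and build GRCm39. Aligner, annotation, strand setting and HTSeq version are not given in any source used here. For all 23951 genes above 0, dividing by a step per gene and library gave whole reads (tolerance 0.01 reads), from which the reads and depths come.

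The 11774 genes averaging 1 FPKM or more were tested on log2(FPKM + 1), pseudocount 1, with limma 3.58.1 in R 4.3.3 (trended, robust prior, two-sided, Benjamini-Hochberg, threshold 0.05). The members and gene lists were chosen with earlier results of these data known. Named are all 10 members, of each list the genes that passed (up to 6) or else the 4 with the smallest p, and the 3 genes most like 4 members. Other genes named (Reg1, Reg2, Reg3a, Reg3d, Nupr1, Clca1, Retnlb, Il13, Il22, Socs3, Lcn2, S100a8, S100a9, Ly6g, Steap4, Xist, Ddx3y) were chosen after their values were seen. As nothing says that libraries came from separate animals, p-values reflect only the spread among these libraries, which may be technical. Promoter windows came from RefSeq (GRCm38.p6) and transcript identities from GENCODE M21 by local alignment of the longest coding transcripts. Alternatives covered the pseudocount, filter, scaling, variance prior, blocks and leaving out libraries.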

Additional observations from a re-analysis of the deposited data

How the results depend on the processing

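All members but Lypd8 kept the direction of their fold change in all 17 alternatives. For members without overlap, leaving out or averaging libraries cannot change the direction. The filter and the variance prior leave the fold change as it is. The kept direction is therefore no sign of stability. Lypd8 came to 0 with quantile normalization. The fold change of Mptx2 depended on the pseudocount, at 5.20 with 0.1, 3.31 with 0.5 and 3.48 after rescaling to TPM, against 2.49. The count of members without overlap stayed at 8, or 8 to 10 with 1 library left out. With all libraries 27.5% of all genes tested had no overlap. That share was not computed for the other settings, and a group of 2 libraries separates more easily. Nothing is therefore read from these counts. The other counts are given for all genes, related genes and members that passed, in that order, and were 239, 9 and 2 with all libraries. They were 140, 3 and 2 with no filter, 3, 0 and 0 with libraries 2 and 3 averaged, and 46, 0 and 2 with these as a random block. Leaving out 1 library gave 45 to 4479 genes, 0 to 66 related genes and 2 to 5 members. The highest counts of genes and related genes came without lenvatinib 1, and the 5 members without DMSO 1. With the replicate number as a block, 29 genes, 1 related gene and 1 member passed. Deviations of same-numbered libraries did not correlate positively (-0.196, -0.159 and -0.151). As libraries 2 and 3 are near copies, these values repeat the contrast of library 1 with them and cannot show whether the numbers pair samples. The labels do not say that they do, so the block is kept as an alternative only. Dividing FPKM by the mean of 7 epithelial genes, chosen after seeing the data, left 9 members without overlap. The share over all genes was not computed for that scaling either. Depth limits Mptx1 and Mptx2, which rested on 0 to 169 reads per library apart from Mptx1 in DMSO 1.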
